A study of Mus musculus with 44 samples.

Results

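Chemokine and inflammatory cytokine genes, 10 in number, were followed through whole tissue, microglial ribosomes, synaptosomes and ribosomes of synaptosome-attached microglial processes in the mouse brain. They are the 5 CC chemokines Ccl2, Ccl3, Ccl4, Ccl9 and Ccl12 and the 5 cytokines Tnf, Il1a, Il1b, Il18 and Il16. Members were taken by symbol, and each symbol gave 1 Ensembl identifier in GENCODE M21. They are 10 of the 50714 identifiers counted in all 44 libraries. The 5 chemokine genes lie on mouse chromosome 11 (GRCm38), Ccl2 at 82035571 to 82037453 and Ccl12 at 82101845 to 82103400, and Ccl9 at 83572919 to 83578636, Ccl3 at 83647844 to 83649355 and Ccl4 at 83662584 to 83664683. Il1a (129299610 to 129309972) and Il1b (129364570 to 129371139) are neighbours on chromosome 2, and Tnf, Il18 and Il16 lie on chromosomes 17, 9 and 7. Ccl2 and Ccl12, Ccl3 and Ccl4, and Ccl9 and Ccl6 are close paralogs between which reads could be split, so their values carry that uncertainty.

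Chemokines are small secreted proteins that recruit leukocytes through G protein-coupled receptors, and cytokines of the tumour necrosis factor and interleukin-1 families start inflammatory signalling in the cells that bind them. Microglia, the resident macrophages of the brain, are a main source of several of them after injury or infection. The 10 proteins leave the cell by different routes. The CC chemokines carry a signal peptide and are made on the endoplasmic reticulum, TNF is made as a transmembrane precursor, and IL-1 alpha, IL-1 beta, IL-18 and IL-16 are made without a signal peptide, as precursors that proteases can cut.

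Tissue was the dorsal cortex together with the hippocampus, taken at postnatal day 28 to 29. All mice were labelled CX3CR1-CreERT2 (+/-) x RPL10a-GFP flox (+/-) (the series design gives fl/fl), so control and tamoxifen mice share both alleles. In this model tamoxifen activates a Cre recombinase under the Cx3cr1 promoter, which then turns on a GFP-tagged ribosomal protein L10a. Cx3cr1 is active in microglia but also in other mononuclear phagocytes such as border macrophages, so the tag is not limited to microglia by design. Tamoxifen was given at 100 mg/kg at p15, p17 and p19 in sunflower seed oil and ethanol, and control mice had vehicle only per the sample labels, although the series design calls them untreated.

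There were 4 fractions. Input is RNA of the homogenate, MG_TRAP is the RNA on GFP-tagged ribosomes purified from it (translating ribosome affinity purification, TRAP), SN_input is RNA of the synaptosome fraction, and PeMP_TRAP is the RNA on tagged ribosomes from that fraction, which the second set names SN_TRAP. In each fraction 3 libraries were from control mice (letters A, B and C) and 8 from tamoxifen mice (letters D through K). Letters A through F make up the first of 2 sets, with 24 libraries, and the remaining 20 libraries, all from tamoxifen mice, the second. Whether a letter stands for 1 animal is not stated, so p-values measure the spread between these libraries. These are bulk samples, so fewer cells of a type and less RNA per cell cannot be told apart.

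Assigned reads ranged from 746616 to 35584637 per library. In the second set, the 5 libraries of PeMP_TRAP had reads for 5372 to 7369 genes, against 11694 to 13096 in the 3 tamoxifen ones of the first set, at 20442643 to 35584637 against 746616 to 12602839 assigned reads. In these 5 libraries 45.8% of the 15710 genes tested had a count of 0 in at least 1 library and at least 100 reads in another, against 3.91% in the first set, and 4 of the 10 members (Ccl9, Ccl12, Il1a and Il18) were among those genes. In tamoxifen MG_TRAP this share was 19.4% in the second set and 2.56% in the first, with 2 and 1 of the 10 members. The calls on PeMP_TRAP are therefore given within each set as well. Levels below are CPM, reads scaled to the library's assigned total, and a count of 3 reads, the limit that a count of 0 allows, lay between 0.0847 and 4.05 CPM. These limits cover counting error only, since amplified reads are not independent molecules.

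The labelled cell type was checked with marker lists. All 10 microglia markers rose in MG_TRAP, and their summed level was 8011 to 24728 CPM in tamoxifen MG_TRAP libraries against 98.9 to 288 CPM in Input. In control MG_TRAP libraries the sum was 907 to 4565 CPM, so these libraries held microglial RNA too. Neuron markers summed to 1045 to 6077 CPM in tamoxifen MG_TRAP against 7321 to 12345 in Input, and astrocyte markers to 267 to 2029 against 1555 to 3752 CPM. Oligodendrocyte markers summed to 403 to 15012 CPM against 3439 to 8630, and in the second set their median was 7400 CPM in MG_TRAP and 6638 in Input. Of the 8 neuron, 7 astrocyte and 7 oligodendrocyte markers none rose in MG_TRAP, and 2, 1 and 1 fell. Border macrophage markers summed to 83.3 to 246 CPM in tamoxifen MG_TRAP and 1.91 to 21.4 CPM in Input, and 3 of 8 rose. Monocyte and neutrophil markers summed to 0.0753 to 47.5 CPM in tamoxifen MG_TRAP, where 5 of 10 were at 0 in all 8 libraries (S100a9, Ngp, Camp, Ly6g and Elane). Lymphocyte and plasma cell markers summed to 0.226 to 521 CPM in tamoxifen MG_TRAP against 0 to 2.58 in Input, and to 1.21 to 3192 CPM in tamoxifen PeMP_TRAP against 0 to 2.53 in SN_input. Of 8 such markers 3 were tested, of which 2 rose in MG_TRAP against Input (list median 7.40), and 2 rose and 1 fell in PeMP_TRAP against SN_input (list median 10.56). Of the 8, Cd3d, Cd8a and Nkg7 were at 0 in all 8 MG_TRAP libraries, and these with Cd3e and Cd79a in all 8 PeMP_TRAP libraries. The part of these cells in the member results was not tested.

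The sequence just upstream of the start site shows a feature that some members share. RefSeq (GRCm38.p6) promoters were matched for 8 of the 10 members (all but Ccl2 and Ccl4), with 10 start sites in all because Il16 has 3. The letters TATAAA on the sense strand lay wholly between 40 and 20 bases before the start in 4 of these 10 start sites, those of Ccl12, Il1a, Tnf and Il1b. Of 32851 promoters 1.91% hold it there. These 4 are shown with Ccl9 and Il18, which lack it in that window, for contrast. The same letters occur there in a pair of genes that was high in microglial ribosomes (Ccl12, Il1a) and a pair that was near 0 in them (Tnf, Il1b). Each line gives the 60 bases before the start, and capitals mark the letters TATAAA, the AP-1 motif (its letters are TGANTCA) or the NF-kB consensus, searched on either strand.
Ccl12, chr11:82101785-82101844, + strand: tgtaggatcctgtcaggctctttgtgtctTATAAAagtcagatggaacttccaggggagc
Il1a, chr2:129309973-129310032, - strand: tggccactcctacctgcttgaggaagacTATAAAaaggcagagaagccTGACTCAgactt
Tnf, chr17:35202008-35202067, - strand: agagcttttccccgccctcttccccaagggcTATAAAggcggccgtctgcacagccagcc
Il1b, chr2:129371140-129371199, - strand: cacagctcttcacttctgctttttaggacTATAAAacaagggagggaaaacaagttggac
Ccl9, chr11:83578637-83578696, - strand: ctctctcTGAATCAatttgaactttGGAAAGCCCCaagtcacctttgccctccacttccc
Il18, chr9:50554640-50554699, + strand: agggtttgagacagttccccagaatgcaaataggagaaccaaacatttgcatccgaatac

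In these lines the first T of TATAAA lies 31 bases before the start in Ccl12 and Il1b, 32 in Il1a and 29 in Tnf. Over the 250 bases before the start, TATAAA on either strand was also found for Ccl9 (3 matches) and Il18 (1 match), further upstream than the bases shown. Of all promoters 12.4% hold it in these 250 bases. There TGANTCA on either strand was found for Ccl9, Il1a and 1 start site of Il16 (6.75% of all promoters). The NF-kB consensus on either strand was found for Ccl9 and another start site of Il16 (7.25% of all promoters). GAGGAAGT, a PU.1 motif, was found in none of the 10, against 2.44% of all promoters. A match is a description of these letters only.

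The first comparison asks which of the ligand genes are on microglial ribosomes above their level in whole tissue. In tamoxifen mice, whose Input libraries are meant by Input in this comparison, 6 of them rose in MG_TRAP against Input: the chemokines Ccl3, Ccl4, Ccl9 and Ccl12 and the cytokines Il1a and Il16. Fitted log2 fold changes ran from 4.77 for Il16 to 7.40 for Il1a. Il18 was present in both fractions and was not called, and Tnf and Il1b were at or under 3 reads in every MG_TRAP library. The filter on low counts was passed by 8 of the 10 members, of which 6 rose, and 4.67% of all 15710 genes tested rose in the same fit. The 8 had a median log2 fold change of 6.04, beside -0.14 over all genes tested. A gene could pass the filter through MG_TRAP reads alone. Il1a and Ccl3 were above 3 reads in 8 and 6 of the 8 MG_TRAP libraries, and in 5 and 1 of Input. In SN_input it was 0 and 3 libraries, and in PeMP_TRAP 2 and 1. Their passing may thus have rested on MG_TRAP, so the 6 of 8 and the median only describe the members tested.

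**Figure D1:**
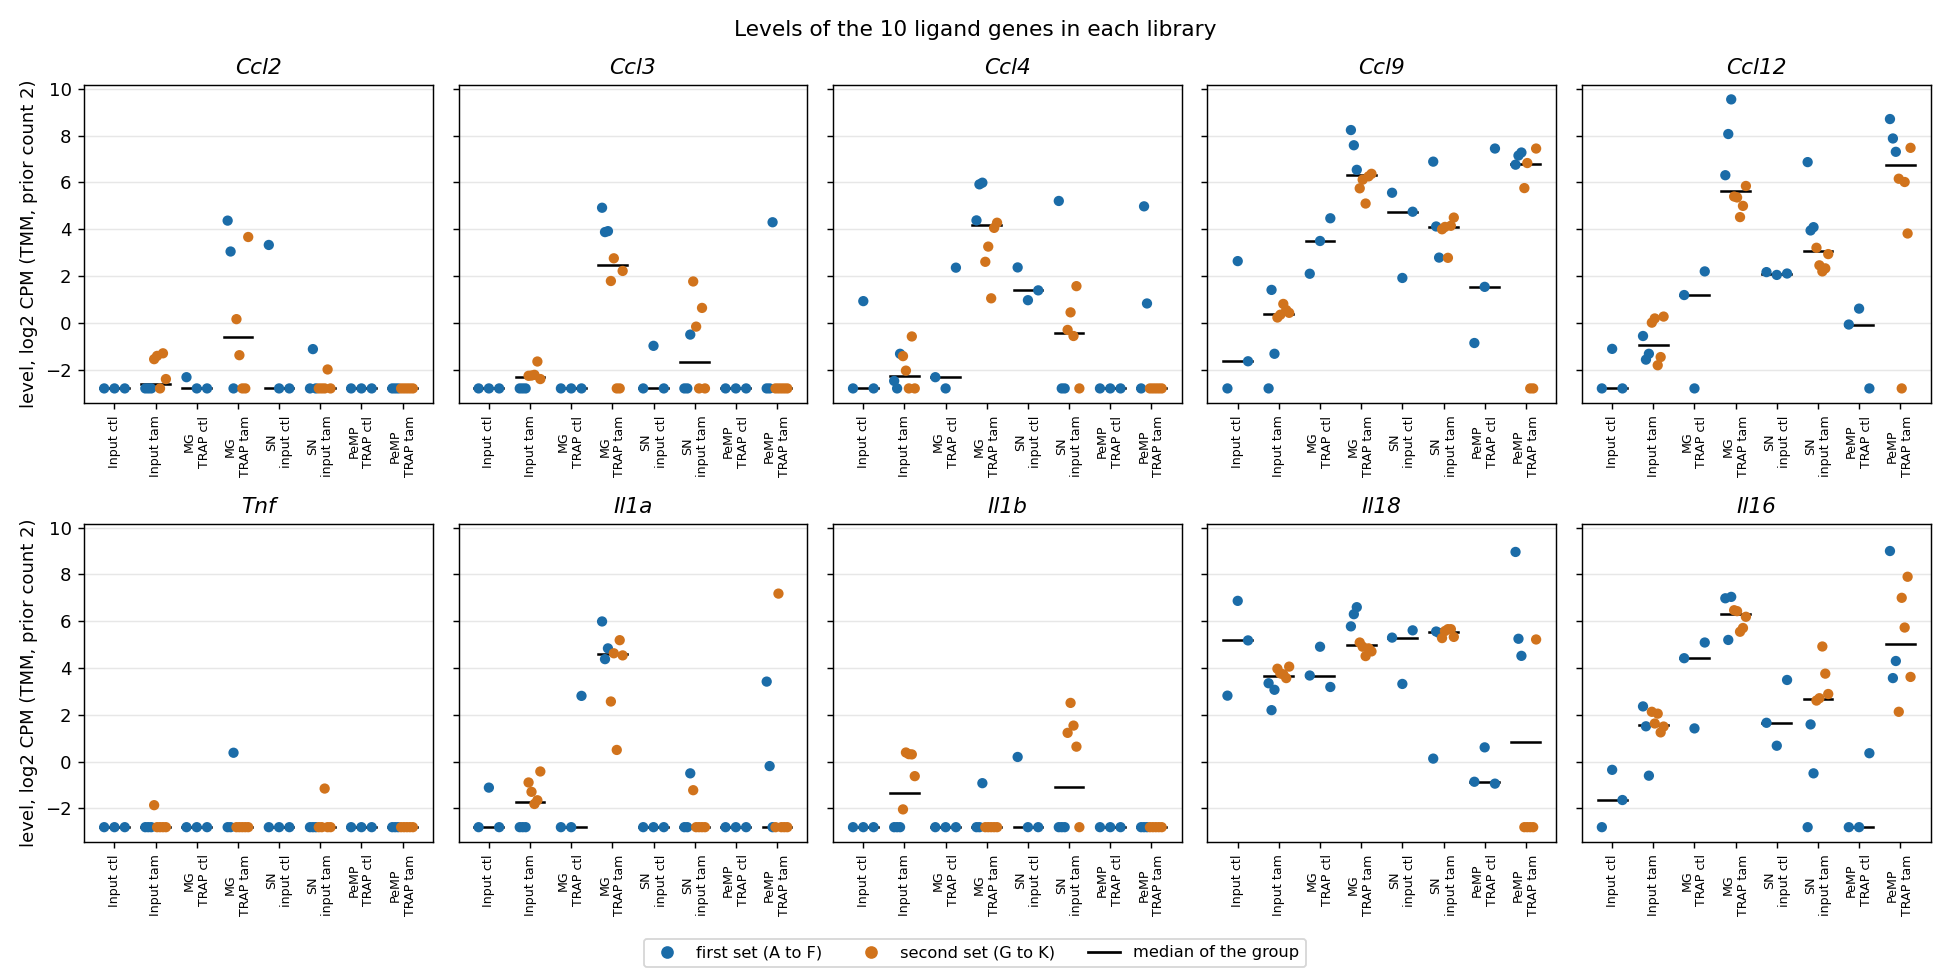
Level of each of the 10 genes (log2 CPM with TMM scaling and a prior count of 2, vertical axis) in every library of the 8 groups (horizontal axis, ctl for control and tam for tamoxifen); points are libraries, coloured by set, and bars are group medians. Ccl4, Ccl9, Ccl12, Il1a and Il16 in tamoxifen MG_TRAP lie above every tamoxifen Input library, while Tnf and Il1b lie at the bottom of the scale in the TRAP libraries, except MG_TRAP library F with 3 reads and 1 read.

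Ccl12 and Ccl9 were the chemokines with the most reads. CCL12 is a monocyte attractant that binds CCR2, and its level in the 8 tamoxifen MG_TRAP libraries was 33 CPM at the lowest, 67.4 at the median and 624 at the highest. Tamoxifen Input ranged from 0.218 to 1.69 CPM with a median of 0.604, so the groups did not overlap. The fitted log2 fold change was 7.0 ± 1.06 (SE; edgeR quasi-likelihood test, adjusted p = 8.26e-06), and it was 9.98 in the first set alone and 5.93 in the second set alone, called in both. First-set libraries E and F were the highest, with 255 and 624 CPM.

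Ccl9 encodes a CCR1 ligand of mouse macrophages. Its level in tamoxifen MG_TRAP was 49.3, 101 and 318 CPM at the lowest, median and highest library, and every library was above the highest Input library (2.83 CPM). It rose by 6.32 ± 1.20 on the log2 scale (adjusted p = 0.000361) and was called within each set.

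Ccl4 and Ccl3 are neighbouring genes that encode the chemokines MIP-1 beta and MIP-1 alpha. Ccl4 was read in all 8 tamoxifen MG_TRAP libraries, at 2.80, 22.4 and 57.7 CPM (lowest, median, highest), against 0 to 0.820 CPM in Input. Its log2 fold change was 6.22 ± 1.72 (adjusted p = 0.016), called in the second set alone (5.95, adjusted p = 0.0224) but not in the first (8.98, adjusted p = 0.0866). Library I was the lowest of the 8, and all 8 lay above every Input library.

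Ccl3 was less even. It had 422, 63, 39, 61, 248 and 150 reads in libraries D, E, F, G, H and K and a count of 0 in I and J. Those 6 libraries lay above every Input library (0 to 4 reads), and the other pair lay at the bottom of the Input range. The fitted log2 fold change was 5.85 ± 1.86 with an adjusted p of 0.0468. That call was lost without any one of D, E, G, H or K (adjusted p up to 0.117) and within either set alone.

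Ccl2, which encodes the main CCR2 ligand MCP-1, did not pass the filter. It had 288 and 35 reads in D and E, 418 in K, 18 in G, 9 in H and none in F, I and J, so the group spans from 0 to 21.7 CPM. In tamoxifen Input it reached 7 reads at most. Without the filter on low counts its log2 fold change was 5.17 ± 1.68 (adjusted p = 0.0327 over 32165 genes). In the first set, where Ccl2 was at 0 in all 3 Input libraries, mean CPM was at least 10.7-fold higher in MG_TRAP than the 3-read limit of the shallowest Input library. Without library D it was at least 4.23-fold higher, and without F at least 16.1-fold.

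Among the cytokines, Il1a and Il16 rose. IL-1 alpha acts as an alarmin through the IL-1 receptor. Il1a had 27 to 1377 reads in the 8 tamoxifen MG_TRAP libraries (1.84, 27.2 and 67.2 CPM at the lowest, median and highest), and 0 to 13 reads in Input, with no overlap. Its log2 fold change was 7.40 ± 1.89 (adjusted p = 0.00828). In the first set Il1a was at 0 in all 3 Input libraries, and mean CPM was at least 40.3-fold higher in MG_TRAP (23.7-fold without library D). In the first set alone the log2 fold change was 10.88 (adjusted p = 0.0328), and in the second 5.87 with an adjusted p of 0.197. Il1a shares 222 exonic bases with Gm14023 on the opposite strand, and the counting strand is not given in the sources used here.

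Il16 encodes a precursor with PDZ domains whose cleaved end attracts CD4+ cells, and a longer form is known from neurons. Its level in tamoxifen MG_TRAP was 34.9, 103 and 133 CPM (lowest, median, highest), above every Input library (0.610 to 8.09 CPM). The log2 fold change was 4.77 ± 1.00 (adjusted p = 0.00123), called in the second set alone (4.48, adjusted p = 0.00426) but not in the first (5.16, adjusted p = 0.0871). Of its 7865 exonic bases 1368 are shared with Stard5 or 2310044K18Rik on the opposite strand, so part of its reads could belong to those genes.

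Il18 encodes an IL-1 family precursor that caspase-1 cuts. It was the only member above 3 reads in every Input library, at 5.01, 19.3 and 26.2 CPM (lowest, median, highest) in tamoxifen mice. In MG_TRAP it was at 32.7, 43.9 and 80.9 CPM, and here too all 8 libraries lay above every tamoxifen Input library, although control Input reached 134 CPM. The fitted difference was 1.59 ± 1.20 (log2) with an adjusted p of 0.602, so it was not called. Fitted on MG_TRAP and Input libraries alone it was 1.96 with an adjusted p of 0.00141, and limma voom gave 1.41 with 0.0498.

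Tnf and Il1b were the members without a signal on microglial ribosomes. Tnf had 3 reads in MG_TRAP library F and 0 in the other 7, and in Input 4 reads in G and 0 elsewhere, so no fold is given. Il1b had 1 read in MG_TRAP library F and 0 in the other 7. In Input it was at 0 in D, E and F and had 3, 35, 31, 25 and 11 reads in G, H, I, J and K. In the second set mean Il1b in Input was 1.23 CPM, and MG_TRAP, with limits of 0.109 to 0.226 CPM, was at least 5.45-fold lower. The fit over both sets gave -3.80 ± 1.94 (adjusted p = 0.341), and the second set alone gave -7.21 (adjusted p = 0.0137), as did the fit without library letter F at -6.54 (adjusted p = 0.0149).

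Per length of exon, the order of the medians in tamoxifen MG_TRAP, in CPM per kilobase, was Ccl12 (126), Il18 (42.6), Ccl4 (34.0), Ccl9 (33.1), Il1a (13.8), Il16 (13.1), Ccl3 (9.82) and Ccl2 (0.740), with Tnf and Il1b at a median of 0. The ranges of every pair of neighbours in this order overlapped. The order differed between the sets: in the first, Ccl4 (80.2) had a higher median than Il18 (72.7), and in the second Il18 (38.4) and Ccl9 (31.0) were above Ccl4 (19.5). Ccl3 was above Il1a in the first set and below it in the second. In tamoxifen Input the order began with Il18 (18.7), followed by Ccl12 (1.12), and the ranges of these 2 genes did not overlap.

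**Figure D2:**
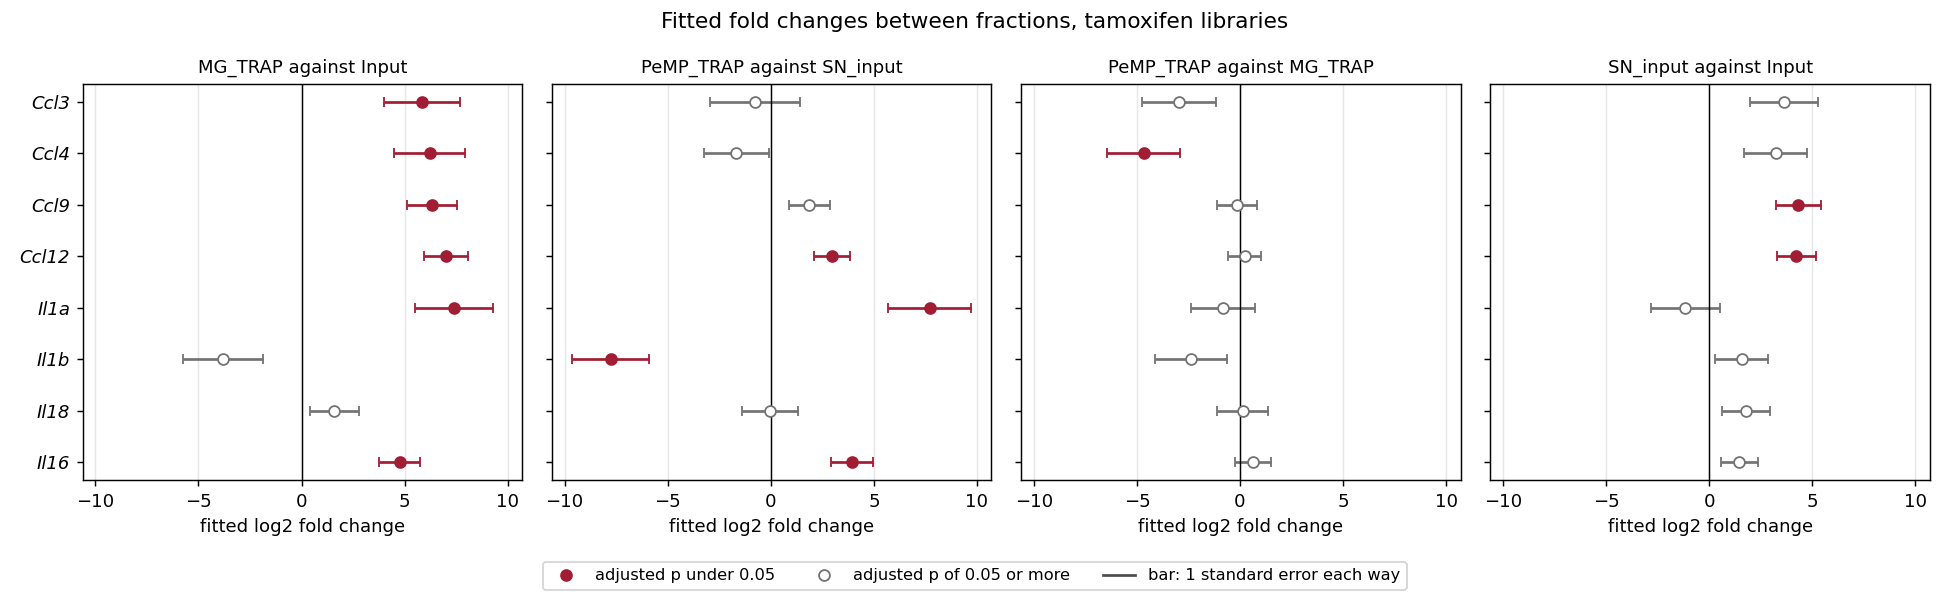
Fitted log2 fold change (horizontal axis) of the 8 members that passed the filter, in 4 comparisons between fractions of tamoxifen mice; bars are 1 standard error each way, and filled points have an adjusted p under 0.05. In MG_TRAP against Input 6 genes are filled, from 4.77 to 7.40, and Il1b is the filled point on the lower side in PeMP_TRAP against SN_input.

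The authors' deposited table covers the first set and lists 8 of the members, without Tnf and Il1b. In it 7 of these 8 are higher in MG_TRAP than in Input with an FDR under 0.05, where 6.96% of its 13634 genes are. The log2 fold change in the authors' deposited table is 10.63 for Ccl12 (FDR = 3.09e-13) and 9.05 for Ccl2 (FDR = 0.00504), and Il18 is the one not called, at 1.86 (FDR = 0.263). For PeMP_TRAP of tamoxifen mice against SN_input the authors' deposited table has 3 members higher, Ccl12 (4.06, FDR = 0.00165), Il1a (5.88, FDR = 0.0214) and Il16 (6.01, FDR = 0.000369), where 9.6% of its genes are. For SN_input against Input the authors' deposited table has Ccl12 (11.85, FDR = 6.95e-05) and Ccl9 (9.17, FDR = 0.0161) higher, where 1.18% of its genes are. Its headers name likelihood-ratio statistics and give no treatment for either input. Of these calls, several were not made by the quasi-likelihood test in the first set alone. They were Ccl2, Ccl3, Ccl4 and Il16 in MG_TRAP, Ccl12 and Il1a in PeMP_TRAP and Ccl9 in SN_input.

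Receptors and processing factors of these ligands were read in the same comparison. Ccr1, a receptor of CCL3 and CCL9, was at a log2 fold change of 1.33 ± 1.46 (adjusted p = 0.773), and Ccr2 did not pass the filter. Both TNF receptor genes rose, Tnfrsf1a by 3.82 ± 0.98 and Tnfrsf1b by 4.94 ± 1.35 (adjusted p = 0.00828 and 0.0148), in libraries where Tnf itself had at most 3 reads. The IL-1 receptor gene Il1r1 was at -0.33 ± 1.28 and its partner Il1rap at -1.0 ± 1.31, neither called. Il1rn, Il18r1 and Il18rap, which encode the IL-1 antagonist and the IL-18 receptor chains, had no MG_TRAP library above 3 reads. Cd4, which encodes a receptor of IL-16, fell by 5.54 ± 1.54 (adjusted p = 0.0169), and Cd9, also described as an IL-16 receptor, rose by 2.94 ± 0.92 (adjusted p = 0.0406). Genes of the inflammasome, which matures IL-1 beta and IL-18, rose as well: Pycard by 6.22 ± 0.73, Nlrp3 by 6.11 ± 1.76, Gsdmd by 5.65 ± 1.49 and Casp1 by 4.55 ± 1.45 (adjusted p from 4.03e-08 to 0.0485). Adam17, the sheddase of TNF, was at 2.53 ± 0.90 (adjusted p = 0.0895).

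Other genes of the pathway moved as follows. Of 10 other chemokine ligands tested 3 rose and none fell, led by Ccl24 (7.24 ± 1.94) and Ccl6 (6.71 ± 0.77). Of 8 other cytokine ligands Tgfb1 rose (6.53 ± 1.39) and Il12a fell (-7.70 ± 1.70). Of 6 chemokine receptors 2 rose, among them the atypical receptor gene Ccrl2 (5.18 ± 1.56). Of 11 cytokine receptors and antagonists 6 rose and 1 fell, of 13 processing genes 6 rose, and of 22 genes of the NF-kB pathway and its feedback 3 rose, among them Nfkb1 (3.62 ± 0.95). The medians of these 6 lists (other chemokine ligands, other cytokine ligands, chemokine receptors, cytokine receptors and antagonists, processing, NF-kB) were -1.07, 1.16, -0.26, 2.94, 3.54 and 1.98, beside -0.14 over all genes.

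The second comparison asks which ligand RNAs are on tagged ribosomes of the synaptosome fraction above their level in that fraction. Ccl12, Il1a and Il16 rose in PeMP_TRAP against SN_input and Il1b fell. Of the 8 members tested 3 rose, where 6.15% of all genes did, and 1 fell, where 26.1% did. The members had a median log2 fold change of 0.91, beside -0.75 over all genes. In the same comparison all 10 microglia markers rose (list median 3.33), with sums of 3735 to 16732 CPM in PeMP_TRAP against 308 to 1023 in SN_input. Markers of other brain cells fell, 6 of 8 for neurons (552 to 1611 against 2508 to 5099 CPM), 4 of 7 for astrocytes (522 to 3081 against 3673 to 9810 CPM) and 6 of 7 for oligodendrocytes (702 to 5962 against 3273 to 60647 CPM). Of 15 immediate early genes, which cells switch on within minutes of stimulation or tissue handling, 6 fell and 1 rose (list median -1.57). Of the border macrophage markers 2 of 8 fell, and of the 4 monocyte and neutrophil markers tested 3 fell. The part of these lists in the member results was not tested.

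**Figure D3:**
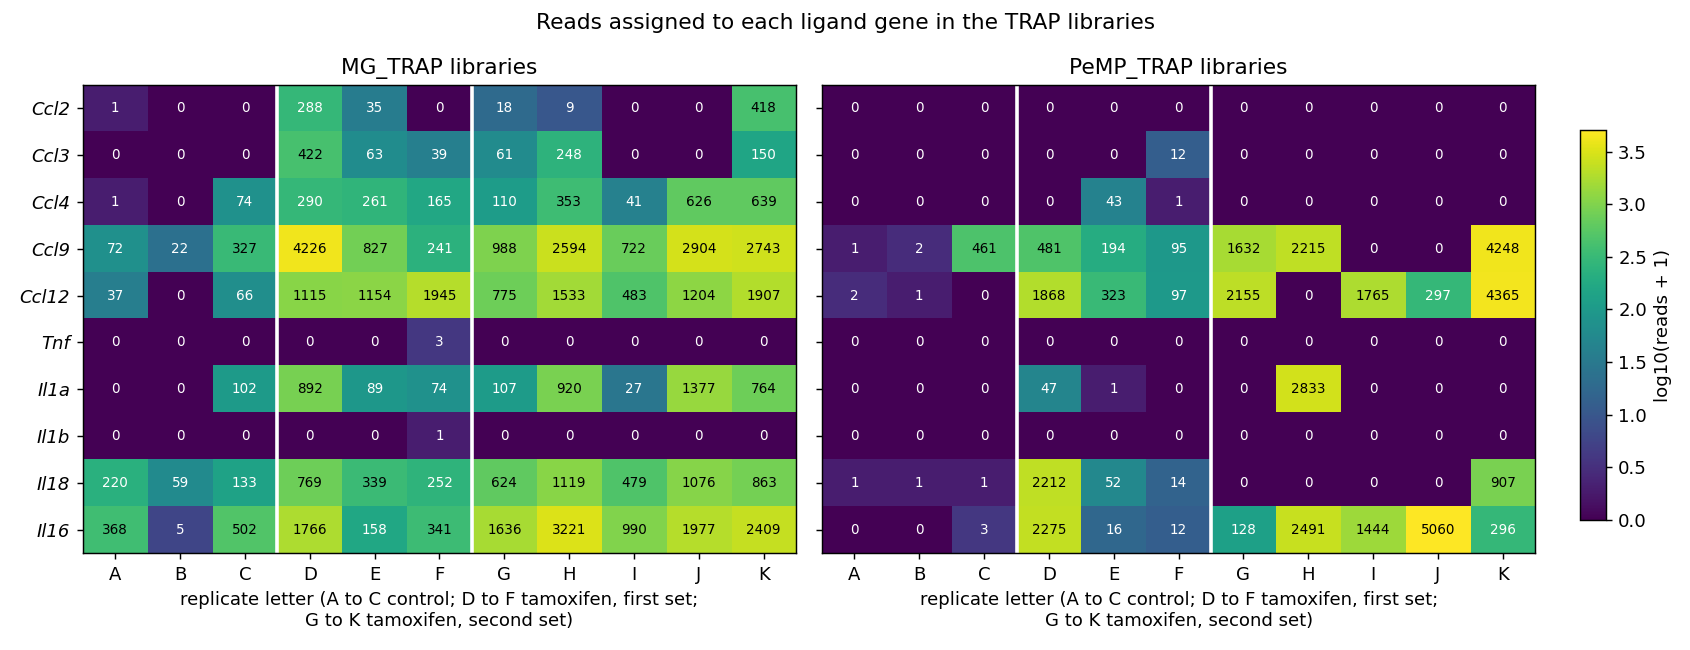
Reads assigned to each of the 10 genes (rows) in each MG_TRAP and PeMP_TRAP library (columns, by replicate letter; white lines part control, first-set tamoxifen and second-set tamoxifen libraries); colour is log10(reads + 1) and the number in each cell is the count. In the second set (G to K) Ccl12 has 2155, 0, 1765, 297 and 4365 reads in PeMP_TRAP, and Il1a has 2833 in H and 0 in the rest.

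Il16 was the one member read above 3 counts in all 8 tamoxifen PeMP_TRAP libraries. It was at 181, 6.43 and 16.2 CPM in D, E and F and at 3.61, 107, 41.7, 249 and 11.6 CPM in G to K. In SN_input it ranged from 0 to 26.3 CPM, and 4 of the 8 PeMP_TRAP libraries (D, H, I and J) lay above all of these. The fitted log2 fold change was 3.94 ± 1.00 (adjusted p = 0.00257), called in the first set alone (7.25, adjusted p = 0.026) and in the second set alone (2.66, adjusted p = 0.0145).

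Ccl12 was at 148, 130 and 131 CPM in D, E and F and at 60.8, 0, 50.9, 14.6 and 171 CPM in G to K. SN_input ranged from 3.86 to 84.9 CPM with a median of 6.28, and library D was the highest by far. The log2 fold change was 2.99 ± 0.87 (adjusted p = 0.00747). Within the first set it was 2.47 (adjusted p = 0.165) and within the second 3.23 (adjusted p = 0.0293).

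Il1a rested on 1 library. Its PeMP_TRAP counts were 47, 1 and 0 in D, E and F, and 2833 in H with 0 in G, I, J and K, while SN_input never exceeded 3 reads. The fitted log2 fold change was 7.72 ± 2.01 (adjusted p = 0.00327), and without letter H it was 2.94 with an adjusted p of 0.261. The call was also lost with the replicate letter as a block. The first set alone gave 4.63 (adjusted p = 0.242) and the second 8.83 (adjusted p = 0.0129). Over all 8 libraries the 2881 reads in PeMP_TRAP against 4 in SN_input give a ratio of 357 with reads and totals pooled (exact 95% interval 139 to 1310, counting error only), 6.99 without PeMP_TRAP library H and 1208 without SN_input library G. The ratio of mean CPM was 269, 10.1 without PeMP_TRAP library H and 520 without SN_input library G.

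Il1b was at 0 in all 8 tamoxifen PeMP_TRAP libraries. In SN_input it had 0 reads in D, E, F and K and 23, 59, 36 and 13 in G, H, I and J, so the comparison rests on the second set. There mean SN_input was 2.12 CPM, and PeMP_TRAP was at least 14.4-fold lower (limits of 0.0847 to 0.147 CPM), or 9.56-fold without SN_input library H. The fit gave -7.77 ± 1.87 (adjusted p = 0.002), a fitted value against a group at 0 and so no bound, and limma voom gave -1.31 (adjusted p = 0.75). Il1b shares 25 exonic bases with its antisense gene Il1bos.

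The other members of this comparison were not called with both sets. Ccl9 was at 38.2, 78.0 and 128 CPM in D, E and F and at 46.1, 95.1, 0, 0 and 167 CPM in G to K, and its fold change was 1.87 ± 0.98 (adjusted p = 0.147), with 1.56 in the first set and 1.96 in the second, neither called. Il18 was at 176, 20.9 and 18.9 CPM in the first set and 35.6 CPM in K, with 0 in G to J, where SN_input held 34.4 to 46.1 CPM. Its fitted value of -0.05 ± 1.35 joins a first-set value of 2.54 to a second-set value of -2.86, neither called.

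Ccl3 and Ccl4 were each read in 1 PeMP_TRAP library above 3 counts, Ccl3 in F (12 reads) and Ccl4 in E (43 reads). All 5 second-set libraries were at 0 for both, and mean CPM there was at least 6.59-fold (Ccl3) and 6.42-fold (Ccl4) lower than in SN_input. Each limit rested on 1 SN_input library: without G it was 3.33-fold for Ccl3, and without J 3.66-fold for Ccl4. In the second set alone both were called lower (-7.62, adjusted p = 0.00736 and -7.59, adjusted p = 0.00138). Ccl2 and Tnf had no read in any PeMP_TRAP library.

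**Figure D4:**
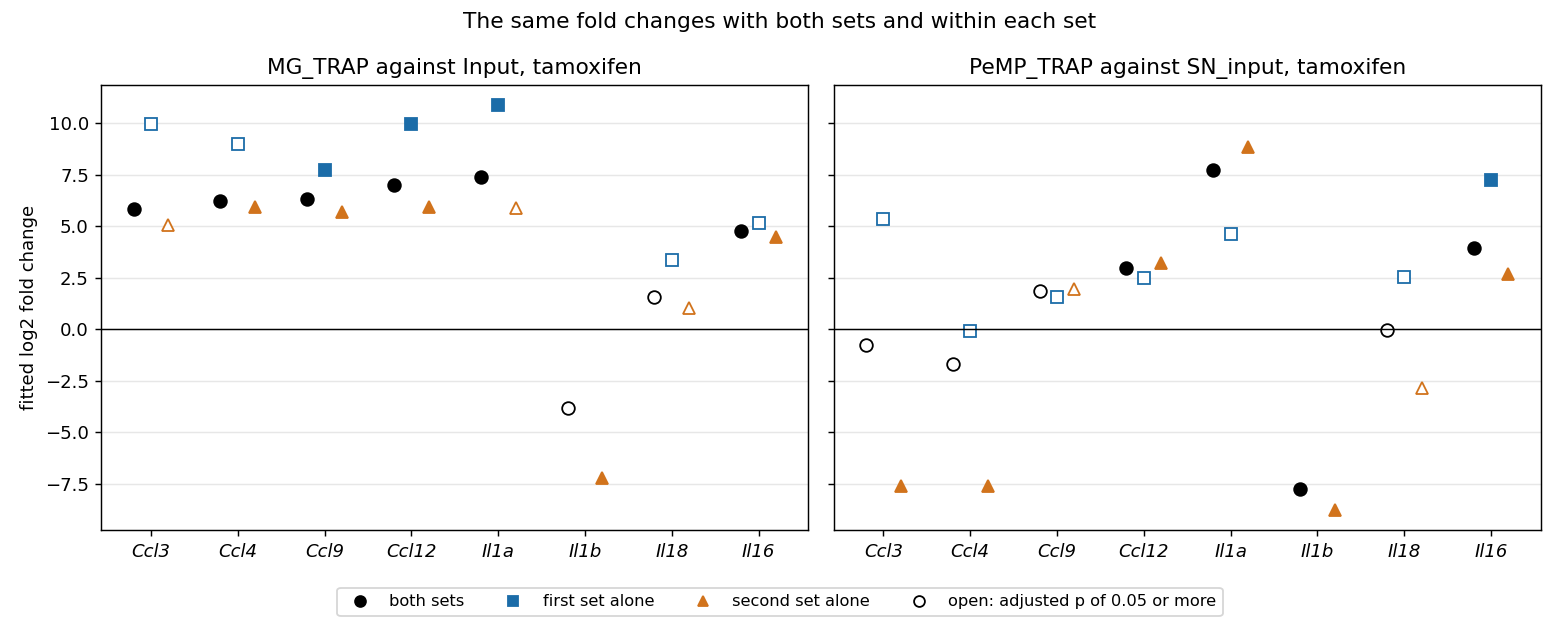
Fitted log2 fold change (vertical axis) of each member for MG_TRAP against Input and for PeMP_TRAP against SN_input in tamoxifen mice, from both sets, the first set alone and the second set alone; filled symbols have an adjusted p under 0.05. In MG_TRAP the sets give the same sign for every gene tested in both, while in PeMP_TRAP Ccl3 and Il18 are above 0 in the first set (5.36 and 2.54) and below it in the second (-7.62 and -2.86).

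Other ligands and pathway genes were read in PeMP_TRAP against SN_input too. Of 10 other chemokine ligands Ccl6 (3.42 ± 0.65) and Cxcl16 (3.79 ± 1.17) rose, and Ccl17 (-9.36 ± 1.73) and Cxcl14 (-2.75 ± 0.58) fell. Of 8 other cytokine ligands Tgfb1 rose (4.20 ± 1.31), and Il33 (-9.37 ± 1.51) and Il12a (-5.13 ± 1.62) fell. Of 6 chemokine receptors 3 fell and none rose, and of 11 cytokine receptors and antagonists 3 rose, with Tnfrsf1a at 3.52 ± 0.98, and 3 fell, with Il1r1 at -7.90 ± 2.03. Of 13 processing genes Pycard (3.97 ± 0.66) and Casp1 (3.98 ± 1.53) rose and 3 fell, and of 22 genes of the NF-kB pathway and its feedback 5 rose and 1 fell. The list medians ranged from -3.62 to 2.07, beside -0.75 over all genes.

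The 2 immunoprecipitates were compared directly. Ccl4 fell in PeMP_TRAP against MG_TRAP (-4.67 ± 1.78, adjusted p = 0.0494), 1 of the 8 members tested where 22% of all genes fell. Of 15 immediate early genes 7 fell as well (list median -2.85), with sums of 18.7 to 384 CPM in PeMP_TRAP against 197 to 1026 in MG_TRAP. Of the border macrophage, microglia and neuron markers 2 of 8, 2 of 10 and 2 of 8 fell, and their part was not tested. For Ccl4 7 of the 8 PeMP_TRAP libraries were below every MG_TRAP library, and E was the exception. The call was lost without any one of D, G, H, I, J or K, with an adjusted p of up to 0.122, and it was not made in the first set alone (-2.07, adjusted p = 0.695). In the second set mean Ccl4 was at least 98.5-fold lower in PeMP_TRAP, mean Ccl3 at least 26.7-fold and mean Ccl2 at least 25-fold. The limit for Ccl2 rested on library K, and without it was 2.86-fold. In the first set it was 2.42-fold, 0.955-fold without MG_TRAP library D, 3.63-fold without F in MG_TRAP and 8.13-fold without F in PeMP_TRAP. Ccl9 (-0.14 ± 0.95), Ccl12 (0.22 ± 0.81) and Il16 (0.63 ± 0.86) were within 1 standard error of 0, and the median over all genes was -0.57. Ccl12 and Il16 were below 0 under RLE scaling (-0.23 and -0.06) and total counts (-0.44 and -0.33). By set, Ccl9 was at -0.46 and -0.09, Ccl12 at -0.44 and 0.52 and Il16 at 0.86 and 0.13 (first, then second set), none called. Il1a was at -0.83 ± 1.54, but at -4.80 without letter H (adjusted p = 0.0485), and 6 of 8 libraries were below every MG_TRAP library.

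SN_input against Input shows where the unpurified ligand RNA lay. Ccl9 rose by 4.32 ± 1.10 and Ccl12 by 4.23 ± 0.94 on the log2 scale (adjusted p = 0.0204 and 0.00595). Ccl12 was called in the first set alone (7.08, adjusted p = 0.0291) but not in the second (3.22, adjusted p = 0.178), and Ccl9 in neither (5.72 and 3.64, adjusted p = 0.206 and 0.237). These were 2 of the 8 members tested, where 2.08% of all genes rose, and 9 of 10 microglia markers rose too, with summed levels of 308 to 1023 CPM in SN_input against 98.9 to 288 in Input. Of the astrocyte and oligodendrocyte markers 3 of 7 each rose as well, with list medians of 1.80 and 1.90, and the oligodendrocyte sum had a median of 29097 CPM in SN_input against 6460 in Input. The part of these cells in the result was not tested. All 8 SN_input libraries were above every Input library for Ccl12, and 7 of 8 for Ccl9. Library D held the highest level of both (86.2 and 84.9 CPM). Without letter D the value for Ccl9 was 3.59 (adjusted p = 0.0567), and its call was lost as well without any one of E, F, G, H or K. Under RLE scaling and total counts Ccl9 was at 3.67 and 3.52 (adjusted p = 0.0727 and 0.0821). These scalings moved the median of all genes in this comparison by -0.70 and -1.05. Il18, at 0.689 CPM in D and 16.9 to 46.1 CPM in the other 7 SN_input libraries, was not called (1.79 ± 1.18, adjusted p = 0.69), but was called with limma voom (1.68, adjusted p = 0.0248) and with the 2 inputs fitted alone (1.83, adjusted p = 0.0103).

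The difference between the 2 enrichments was tested as an interaction. The rise over the matching input was smaller in synaptosomes for Ccl4 (-7.89 ± 2.22), Ccl12 (-4.01 ± 1.23) and Ccl9 (-4.46 ± 1.43), with adjusted p of 0.0164, 0.0284 and 0.0352. These are 3 of 8 members called lower, where 10.9% of all genes were, and 9 of 10 microglia markers were lower as well, with a list median of -3.01. Of 15 immediate early genes 3 were lower (list median -2.35). Il16 (-0.83 ± 1.24) and Il1a (0.32 ± 2.07) were not called. None of the 3 calls was made in the first set alone, where no gene of the whole table was, and in the second set alone Ccl9 (-3.73, adjusted p = 0.162) and Ccl12 (-2.70, adjusted p = 0.228) were not called. Ccl4 was at -9.06 in the first set (not called) and -13.54 in the second (adjusted p = 0.000181). Leaving out single letters ended the call of Ccl9 without D, F, G, H or K, of Ccl12 without E, F, G, I or J and of Ccl4 without D or H, with adjusted p of up to 0.0929, 0.0867 and 0.0538. The interaction uses the same libraries as the comparisons above.

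Control mice show how much of each ligand is recovered without tamoxifen, in the first set only (D to F against A to C). Summed microglia markers were 907 to 4565 CPM in control MG_TRAP and 568 to 3908 CPM in control PeMP_TRAP, against 8011 to 24728 and 3735 to 16732 CPM over all tamoxifen libraries, and their part in these results was not tested. In MG_TRAP Ccl12 had 37, 0 and 66 reads in control libraries A, B and C (2.91, 0 and 6.93 CPM) and was at 83.9, 255 and 624 CPM in D, E and F, so the groups did not overlap. Its fold change of 7.09 ± 1.57 had an adjusted p of 0.0635. It passed the threshold under RLE scaling (0.0421), with DESeq2 (4.1e-09), with limma voom (0.000232) and without the filter (0.0174). Ccl9 was at 5.67, 14.5 and 34.3 CPM in the controls and 318, 183 and 77.3 CPM in D, E and F, again without overlap (3.75 ± 1.76, adjusted p = 0.29). Control library C stood above A and B for Il1a (102 reads against 0 and 0) and Ccl4 (74 reads against 1 and 0).

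Ccl3 was at 0 in all 3 control MG_TRAP libraries, and its mean in D to F was at least 9.83-fold higher than their highest limit of 1.98 CPM, that of library B (61.6-fold without B). Il16 was at 29.0, 3.29 and 52.7 CPM in the controls and at 133, 34.9 and 109 CPM in D, E and F, with overlap of the groups. None of the 8 members tested was called in MG_TRAP by edgeR, where 0% of all genes were. At an unadjusted p under 0.05 there were 4 of the 8 beside 15.9% of all genes. With limma voom 6 members were called, beside 3183 of all 14771 genes, and with DESeq2 1 member.

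In PeMP_TRAP 3 of the 8 members tested were higher after tamoxifen, Ccl12 (8.33 ± 1.74, adjusted p = 0.00663), Il18 (7.66 ± 1.87, adjusted p = 0.0109) and Il16 (8.10 ± 2.20, adjusted p = 0.0195), where 5.56% of all genes were. In the same comparison 5 of 10 microglia markers were higher (list median 3.49), and 4 of 8 endothelial and mural (-6.91), 3 of 8 neuron and 3 of 7 oligodendrocyte markers were lower. Of 2 lymphocyte and plasma cell markers tested 1 was higher (list median 10.29). Of 15 immediate early genes 2 were lower (list median -2.62), and of 7 astrocyte markers 1 was. The endothelial and mural sum was 790 to 3079 CPM in the control libraries and 17.7 to 485 CPM in D, E and F, and the part of these cells in the result was not tested. The control libraries held 3 reads in all for each, 2, 1 and 0 for Ccl12, 1, 1 and 1 for Il18 and 0, 0 and 3 for Il16. With reads and library totals pooled over each group, the ratio was 349 for Ccl12 (exact 95% interval 119 to 1693), 347 for Il18 (119 to 1686) and 351 for Il16 (120 to 1704), intervals that cover counting error only. With each library weighted equally, the ratio of mean CPM was 220 for Ccl12, 133 for Il18 and 275 for Il16. Without tamoxifen library D these ratios were 210, 36.9 and 46.0. Library D held most of these reads, with 1868, 2212 and 2275 of the tamoxifen reads, and without that library the pooled ratio was 314 for Ccl12, 49.4 for Il18 and 20.9 for Il16. Without control library C it was 153 for Ccl12 and 229 for Il18, and without control library A 751 for Ccl12. In the fit without letter D Ccl12 was at 8.37 (adjusted p = 0.0055), Il18 at 5.65 (adjusted p = 0.0319) and Il16 at 5.09 (adjusted p = 0.11). All 3 calls were lost when PeMP_TRAP libraries were fitted alone (adjusted p of 0.138, 0.166 and 0.149) and with limma voom. Ccl9 was not called (1.05 ± 1.59), and control library C held 461 reads of it (113 CPM), close to the 128 CPM of library F.

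In the 2 inputs no member differed between tamoxifen and control mice by edgeR. In Input this was 0 of 8, with 0% of all genes called, and 0 of 8 at an unadjusted p under 0.05 beside 3.06% of all genes, and DESeq2 and limma voom called none. In SN_input it was 0 of 8, with 0% of all genes called, and 1 of 8 at an unadjusted p under 0.05, Ccl12, beside 3.35% of all genes, and DESeq2 and limma voom again called none. Il18 was at 10.3, 134 and 46.2 CPM in control Input and 16.3, 5.01 and 9.76 CPM in D, E and F, a difference of -2.71 ± 1.42 that was not called.

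Among control mice themselves no member differed between MG_TRAP and Input by edgeR, 0 of 8 beside 0.0135% of all genes. At an unadjusted p under 0.05 there were 2 of 8, Ccl12 and Il16, beside 7.45% of all genes, and DESeq2 and limma voom called Il16 alone. All 3 control MG_TRAP libraries were above all 3 control Input libraries for Il16 (6.28 ± 1.99, adjusted p = 0.546). PeMP_TRAP against SN_input in controls gave 0 of 8, with 0% of all genes called. At an unadjusted p under 0.05 there was 1 of 8, Il18, beside 17.4% of all genes, DESeq2 called Ccl4 (0 in all 3 PeMP_TRAP libraries) and Il18 as lower, and limma voom called none. Il18 was at 0.488, 0.885 and 0.246 CPM in control PeMP_TRAP and 36.1, 6.91 and 53.0 CPM in control SN_input.

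For the difference between treatments in the rise of MG_TRAP over Input, edgeR called 0 of the 8 members tested, with 0% of all genes called. The fitted differences, tamoxifen minus control, were 7.09 ± 3.55 for Ccl4, 6.41 ± 3.39 for Il1a, 5.25 ± 2.29 for Ccl12, 4.88 ± 2.39 for Ccl9, 4.70 ± 1.98 for Il18 and -1.36 ± 2.17 for Il16. At an unadjusted p under 0.05 there were 3 of 8, Ccl9, Ccl12 and Il18, beside 9.19% of all genes, DESeq2 called none and limma voom Ccl3 and Il18. The rise of PeMP_TRAP over SN_input was larger after tamoxifen for Il16 (10.26 ± 2.73, adjusted p = 0.0466), 1 of the 8 beside 0.914% of all genes. That call was lost without any one of the 6 letters A to F, with adjusted p of 0.0556 to 0.263. It was lost as well with the replicate letter as a block, with limma voom and with the compared groups alone.

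Over the 32 tamoxifen libraries the genes with the most similar profile were named for each of the 8 members that passed the filter, by Pearson's r of log2 CPM, as a description over libraries that share depth, set and fraction. Cryba4 (r = 0.965) and Tapbp (0.861) came first for Ccl9, Pld4 (0.907) and Tmem176b (0.895) for Ccl12, Slc11a1 (0.873) and Adora3 (0.844) for Ccl4, and Arl11 (0.810) and Clec4a3 (0.776) for Ccl3. Fermt3 (0.922) and Snx5 (0.907) came first for Il16 and Cd48 (0.809) and Lrmp (0.799) for Il1a. Il18 had Ccndbp1 (0.928) and Tmem120a (0.927), and Il1b had Mob3b (0.726) and Plac9a (0.723). Among the members, Il1b had a negative r with Ccl12 (-0.348), Il1a (-0.269), Ccl9 (-0.205), Il16 (-0.178) and Ccl4 (-0.069), and no other pair was negative.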

How the data were processed

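The authors deposited HTSeq counts, whole reads per Ensembl gene, from SMART-Seq v4 cDNA libraries (per the labels' protocols). Per the submitters' processing notes the tools were FastQC 0.11.7, Trimmomatic 0.38, Bowtie2 2.3.5, STAR 2.7.0d, HTSeq 0.9.1 and edgeR; genome build, annotation and counting strand are not given in the sources used here. A deposited table of the first set holds log2 CPM per library with log2 fold changes and p-values (FDR) of the authors' comparisons, per the file headers. Symbols, exon lengths and overlaps came from GENCODE M21. Members and lists were chosen with earlier results of these data known.

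Fraction comparisons were fitted on the 32 tamoxifen libraries with set as covariate (15710 genes), comparisons with controls on the 24 first-set libraries (14771 genes). The test was the edgeR 4.0.16 quasi-likelihood test in R 4.3.3 with TMM scaling, filterByExpr (minimum count 10) and Benjamini-Hochberg adjustment at 0.05. The scripts were tested on simulated data. Alternatives were other scalings, no filter, DESeq2 1.42.0, limma voom, fewer groups, single sets, the replicate letter as a block and leaving out each letter. Named were all members, fixed receptors and processing genes (1 receptor is not reported here), the 2 largest and 2 lowest called changes of each pathway list (fewer are printed), and the 2 genes most similar to each member (average log2 CPM of at least 2, named genes).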

Additional observations from a re-analysis of the deposited data

Results flagged for a closer look

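In groups of 4 to 10 libraries, a library far from the rest was looked for in 33 groups of member values, where chance alone flags about 1 in 20 groups, and 9 were found (levels as log2 CPM). In tamoxifen PeMP_TRAP, Ccl3 was highest in F (4.30, 12 reads), Ccl4 was highest in E (4.98, 43 reads) and Ccl12 was lowest in H (-2.80, 0 reads). In tamoxifen SN_input, library D was highest for Ccl9 (6.89) and Ccl12 (6.87) and lowest for Il18 (0.13). Tnf was highest in Input library G (-1.86) and in SN_input library I (-1.15), each with 4 reads where all others had 0. Il16 was lowest in Input library F (-0.60, 2 reads).

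The enrichment of tagged ribosomes over their input differed between synaptosomes and whole tissue, by an interaction test, for Ccl4 (-7.89), Ccl9 (-4.46) and Ccl12 (-4.01). The enrichment in synaptosomes differed between tamoxifen and control mice for Il16 (10.26), a call lost without any one of the letters A to F. It was also lost with the replicate letter as a block, with limma voom and with the compared groups alone.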

How the results depend on the processing

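No member's called fold change reversed under any alternative run: of 1429 alternative fold changes 1233 kept call and sign (or were at 0), 77 changed sign but were called in neither fit, 78 lost the call and 41 gained it. Counts of members called were as follows. Counts over all genes changed between these runs too, and their ranges are given at the end. MG_TRAP against Input gave 6, and 5 under RLE scaling, total counts or the replicate block. It gave 3 in the first set alone and 5 in the second (4 higher, 1 lower). It gave 7 without the filter, with limma voom, with the compared groups alone or with DESeq2 (6 higher, 1 lower). PeMP_TRAP against SN_input gave 4 (3 higher, 1 lower), 1 with limma voom, 2 with the compared groups alone, 1 in the first set alone and 6 in the second (3 higher, 3 lower). PeMP_TRAP against MG_TRAP gave 1, 2 without the filter and in the second set alone, and 0 with limma voom, the compared groups alone or the first set alone. SN_input against Input gave 2, 1 under RLE scaling, total counts or the first set alone, and 0 in the second set alone. The difference of the 2 enrichments gave 3, 5 without the filter, 1 with limma voom and 0 in the first set alone. Tamoxifen against control gave 0 in MG_TRAP, 1 under RLE scaling, without the filter or with DESeq2 and 6 with limma voom, and in PeMP_TRAP 3, and 0 with limma voom or the compared groups alone. In control mice MG_TRAP against Input gave 0, and 1 with DESeq2 or limma voom, and PeMP_TRAP against SN_input 0, and 2 with DESeq2. The tamoxifen minus control difference of MG_TRAP enrichment gave 0, and 2 with limma voom, and that of PeMP_TRAP enrichment 1, 2 with total counts or without the filter, 4 with DESeq2 and 0 with limma voom or the compared groups alone. The cause of these changes was not tested; single sets hold fewer libraries.

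Leaving out 1 letter gave 5 to 7 members in MG_TRAP against Input, 3 to 5 in PeMP_TRAP against SN_input, 0 to 2 in PeMP_TRAP against MG_TRAP, 1 to 2 in SN_input against Input, 1 to 2 in the difference of enrichment, 0 to 1 for tamoxifen against control in MG_TRAP, 2 to 3 in PeMP_TRAP, and 0 in the difference of PeMP_TRAP enrichment between treatments.

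The labels do not say that a letter is 1 animal, and the main fits leave the letter out. Of 66 pairs of same-letter libraries 7 had a correlation of deviations over 0.1 (-0.039 to 0.224, median 0.0215). Of 132 choices of the closest library in another fraction 75 fell on the same letter, where 36 would if letters were alike. Libraries of the same letter thus shared some deviation, though the correlations were low. With the letter as a replicate block, PeMP_TRAP against MG_TRAP called 2 members, SN_input against Input 1, the difference of enrichment 2 and the treatment difference of PeMP_TRAP enrichment 0. Ccl3 in MG_TRAP against Input was then at 6.61 (adjusted p = 0.0672) and Il1a in PeMP_TRAP against SN_input at 4.20 (adjusted p = 0.2), and Ccl9 in the difference of enrichment at -4.15 (adjusted p = 0.109).

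The 77 changes of sign were these, none called, with the main value in parentheses. In PeMP_TRAP against MG_TRAP, Ccl12 (0.22), Il18 (0.14) and Il16 (0.63) were at -0.23, -0.72 and -0.06 under RLE scaling, -0.44, -0.90 and -0.33 with total counts, -0.23, -0.72 and -0.05 with DESeq2, -0.43, -2.57 and -0.89 with limma voom and -0.02, -1.19 and -0.32 with the replicate block. There Il18 was also at -0.08 without the filter, -0.82 with the compared groups alone and -2.25 in the second set, Ccl12 at -0.44 in the first set, Il1a (-0.83) at 0.59 in the second and Il1b (-2.39) at 2.79 with limma voom. Leaving out 1 letter gave -0.47 to 0.10 for Ccl9 (-0.14), -0.17 to 0.80 for Ccl12, -1.75 to 0.45 for Il18 and -0.54 to 0.88 for Il16. In PeMP_TRAP against SN_input, Ccl3 (-0.75) and Il18 (-0.05) were at 5.36 and 2.54 in the first set, and at -6.91 to 0.87 and -1.98 to 0.43 leaving out 1 letter. In SN_input against Input, Il1a (-1.15) and Il16 (1.46) were at 3.03 and -1.22 in the first set. In the difference of enrichment, Il1a (0.32) was at -2.80 with limma voom, -2.20 with the replicate block, -6.25 in the first set and -3.33 to 1.36 leaving out 1 letter, Il1b (-3.96) at 1.82 with limma voom and Il16 (-0.83) at 2.09 in the first set. For tamoxifen against control in Input, leaving out 1 letter gave -3.77 to 2.54 for Ccl4 (-2.50) and -4.41 to 3.48 for Ccl9 (-1.13). In SN_input, Il18 (-0.05) was at 0.01 under RLE scaling and with DESeq2, Ccl3 (0.66) at -0.15 with total counts, and Ccl4 (1.93), Ccl9 (0.83) and Il18 at -3.45, -0.57 and 0.43 with limma voom. Leaving out 1 letter there gave -7.09 to 2.53 for Ccl4, -1.08 to 1.67 for Ccl9, -0.48 to 0.53 for Il18, -2.62 to 3.31 for Ccl3 and -7.55 to 2.65 for Ccl2 (-4.75). In control mice, MG_TRAP against Input gave -3.79 to 7.23 for Ccl4 (1.70) and -3.09 to 7.68 for Il1a (4.44) leaving out 1 letter. Control PeMP_TRAP against SN_input gave Ccl3 (-2.46) at 1.14 with DESeq2 and 1.57 with limma voom, Ccl2 (-7.42) at 0.03 and Ccl9 (1.14) at -1.62 with limma voom, and Ccl9 at -0.87 with the replicate block and -4.17 to 2.57 leaving out 1 letter. In the treatment difference of PeMP_TRAP enrichment, Il1a (4.12) was at -0.86 with limma voom and Ccl9 (0.21) at -0.15 with the compared groups alone, and leaving out 1 letter gave -1.03 to 5.71 for Ccl9 and -2.65 to 7.55 for Ccl2 (4.75). The cause of these changes was not tested. Limits against a group at 0 and pooled ratios, each without single libraries, were computed after seeing the data.

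Counts over all genes varied more: 1071 in MG_TRAP against Input (329 in the first set alone to 3795 with limma voom), 5074 in PeMP_TRAP against SN_input (372 to 7093), 3952 in PeMP_TRAP against MG_TRAP (0 to 6653), 400 in SN_input against Input (6 to 2779), 1770 for the difference of enrichment (0 to 4600), 1643 for tamoxifen against control in PeMP_TRAP (23 to 4109) and 183 for the treatment difference of PeMP_TRAP enrichment (0 to 1826). Counts of 0 became up to 3183 in MG_TRAP with limma voom, and with DESeq2 48 in Input, 64 in SN_input and 1275 in control PeMP_TRAP against SN_input. The treatment difference of MG_TRAP enrichment went from 0 to 734, and control MG_TRAP against Input from 2 to 250, both with limma voom. RLE scaling and total counts moved the share of calls that were higher from 68.4% to 52.9% and 60.1% in MG_TRAP against Input, and from 81.8% to 55.1% and 28.8% in SN_input against Input. Depth limits statements on Tnf, and in the first set on Il1b and on Ccl2, Ccl3 and Ccl4 in PeMP_TRAP.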
